A study of Mus musculus with 4 samples.

Results

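The genes described here encode 35 enzymes and close partners that write or erase methyl groups on histones and DNA. They were taken from a fixed list of names, and each accessible region was given to the protein-coding gene whose span lay nearest. In all, 256 of the 91266 accessible regions of the series belonged to these 35 genes, and each gene had at least 1. Accessibility was measured by ATAC-seq, in which a transposase cuts and tags open chromatin, in natural killer (NK) cells from mouse spleen. NK cells are innate lymphocytes that need the cytokine interleukin-15 (IL-15). The cells were wild type (WT) of strain C57BL/6 and were kept for 72 h in either LD IL-15, the low dose, or HD IL-15, the high dose, with 2 biological replicates each. The concentrations and the age of the mice are not given in the sources used here, nor is whether the replicates came from separate animals.

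The deposited tables held positions only, with 0 columns of values per sample. Beside the full list of regions, the authors deposited an up list and a down list of differentially accessible regions. The sources used here do not say which dose has the greater accessibility in the up list, so the lists keep the authors' names. No level, fold change or replicate spread could be computed, and the depth is unknown. A region in neither list is not shown to be alike at both doses. The intervals below are 95% Wilson intervals over regions or genes. For a count of 0 the limit given is 3 counts of the total in place of a Wilson interval. Both cover counting error only, and regions of the same gene share a locus.

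Histone methylation marks genes as active or silent according to the residue that carries it. Methylation of H3K4 and H3K36 accompanies active genes, and methylation of H3K27 and H3K9 accompanies silencing. DNA methylation at CG pairs is copied at replication by Dnmt1 with Uhrf1, set anew by Dnmt3a and Dnmt3b, and oxidised for removal by the Tet enzymes. In lymphocytes these systems help to keep lineage and effector genes on or off as cells divide.

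Of the regions in the up and down lists, the only one over a start-site window of these genes lay at Uhrf1, which brings Dnmt1 to newly copied DNA. It was 1 of the 30 regions of these genes over such a window (3.33%, 0.591 to 16.7%). Over all genes, 0.939% of the 9478 regions over such a window were listed, so an unlisted start region was the usual case. Uhrf1 had 2 regions, both at its start. The first, of 560 bp at chr17:56303111-56303670, was in the up list and covered the outer of its 2 start sites. The second, of 749 bp at chr17:56303844-56304592, began 173 bp further on, covered the inner start site and was in neither list. The 250 bases before each start site are printed to show both sides of this pair, from RefSeq on build GRCm38.p6, plus strand. Capitals mark matches to a fixed set of motifs, described after the sequences.

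Uhrf1 outer start, chr17:56303087-56303336, region in the up list: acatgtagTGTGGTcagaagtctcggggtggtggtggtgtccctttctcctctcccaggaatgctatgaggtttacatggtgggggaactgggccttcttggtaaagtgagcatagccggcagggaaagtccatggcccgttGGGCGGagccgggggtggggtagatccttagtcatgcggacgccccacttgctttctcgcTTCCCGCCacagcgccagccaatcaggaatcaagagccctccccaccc
Uhrf1 inner start, chr17:56304063-56304312, region in neither list: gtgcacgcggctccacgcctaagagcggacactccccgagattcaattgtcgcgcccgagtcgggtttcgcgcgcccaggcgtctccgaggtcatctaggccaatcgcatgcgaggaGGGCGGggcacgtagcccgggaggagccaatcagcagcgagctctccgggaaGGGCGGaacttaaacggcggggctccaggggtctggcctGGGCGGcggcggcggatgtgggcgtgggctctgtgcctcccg

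The outer stretch held 10 CG pairs and had a GC content of 59.6%. It contained 1 match each to the SP and KLF motif GGGCGG, the RUNX motif TGTGGT and the E2F motif GGCGGGAA. The up region begins at chr17:56303111, so the first bases of the outer stretch, the RUNX match among them, lie outside it. The inner stretch held 30 CG pairs, had a GC content of 69.6% and contained 3 matches to GGGCGG and to no other motif searched. So the start that was listed was the one with fewer CG pairs. E2F proteins are regulators of cell cycle genes. Among all 21263 windows before start sites of protein-coding genes, GGGCGG occurred in 42.6%, TGTGGT in 12.4% and GGCGGGAA in 2.47%. Motifs were searched on both strands, and GGGCGG and GGCGGGAA can overlap. Motifs of ETS, NRF1, STAT, AP-1 and BATF, T-box and YY1 proteins and the TATA box were searched too, and their letters are given with their counts. A match is a description of letters and not of a bound site.

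For comparison, 1 member of each functional group is shown by the 100 bases before a start site that an accessible region in neither list overlapped. They are the first in alphabetical order of each group with such a window, marked in the same way and each read in its own direction of transcription.

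Eed, chr7:89980977-89981076, strand minus: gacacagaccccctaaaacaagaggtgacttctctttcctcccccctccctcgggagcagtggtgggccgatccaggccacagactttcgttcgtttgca
Kdm6a, chrX:18162475-18162574, strand plus: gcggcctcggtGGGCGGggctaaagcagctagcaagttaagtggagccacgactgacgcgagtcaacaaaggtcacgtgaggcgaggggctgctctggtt
Kmt2a, chr9:44881290-44881389, strand minus: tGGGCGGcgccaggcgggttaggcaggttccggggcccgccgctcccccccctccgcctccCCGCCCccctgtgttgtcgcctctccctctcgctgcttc
Kdm1a, chr4:136602724-136602823, strand minus: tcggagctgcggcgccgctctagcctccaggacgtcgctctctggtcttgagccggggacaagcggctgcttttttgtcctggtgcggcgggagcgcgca
Kdm2b, chr5:122900368-122900467, strand minus: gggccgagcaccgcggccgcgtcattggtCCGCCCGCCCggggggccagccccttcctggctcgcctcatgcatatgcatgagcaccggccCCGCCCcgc
Ehmt1, chr2:24919610-24919709, strand minus: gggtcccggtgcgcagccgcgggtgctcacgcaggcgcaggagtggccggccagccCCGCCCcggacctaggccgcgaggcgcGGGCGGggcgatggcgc
Kdm4a, chr4:118180044-118180143, strand minus: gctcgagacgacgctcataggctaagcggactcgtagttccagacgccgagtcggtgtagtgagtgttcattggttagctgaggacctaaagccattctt
Dot1l, chr10:80755103-80755202, strand plus: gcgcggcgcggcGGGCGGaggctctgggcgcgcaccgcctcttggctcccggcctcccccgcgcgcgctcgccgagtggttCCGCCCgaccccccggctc
Dnmt1, chr9:20952980-20953079, strand minus: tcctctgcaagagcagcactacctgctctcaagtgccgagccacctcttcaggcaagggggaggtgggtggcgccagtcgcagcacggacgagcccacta

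Their GC content ranged from 53% in Kdm4a to 84% in Dot1l, and they held between 4 CG pairs (Eed) and 19 (Dot1l). Of these 9, 5 contained GGGCGG (Kdm6a, Kmt2a, Kdm2b, Ehmt1 and Dot1l), and the stretches of Eed, Kdm1a, Kdm4a and Dnmt1 contained no motif searched.

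Start-site windows, running from 250 bases before to 50 after each start, were known for 28 of the 35 genes. Kdm2a, Kdm4b, Kdm5a, Kdm6b, Kmt2b, Kmt2e and Nsd1 had no entry. An accessible region overlapped at least 1 window in 27 of the 28 genes (96.4%), against 55.8% of all 17492 protein-coding genes with a window. Ehmt2, the H3K9 methyltransferase also called G9a, was the exception: its nearest region lay 697 bp from its inner start. By window, 34 of 39 overlapped a region (87.2%), against 54.0% of all windows. The other 4 windows without a region were outer or additional starts: the outermost of Dnmt1, the outer of Kdm4c, 1 of 4 of Kdm2b, and the second of Ehmt2. Thus Dnmt1 was open at both inner starts, under a single region of 1068 bp, and had no region over its outermost start. All 28 genes had a region assigned to them, as had 13086 of the 17492, so the 55.8% is partly over genes without a region. No test was made of these shares, because the genes were chosen as a list.

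The windows of these genes were also rich in CG pairs, with a median of 8.4 per 100 bases (range 0 to 20.4) against 4.0 in all windows. Windows of all genes that overlapped a region had a median of 6.8, and those that overlapped none had 1.2. The motif GGGCGG occurred in 28 of the 39 windows, belonging to 21 of the 28 genes. That is 71.8% of the windows, against 62.0% of all windows with a region and 19.9% of those without. The STAT motif TTCNNNGAA occurred in 1 of the 39, that of Kmt2d, against 6.58% of all windows. The ETS motif CCGGAAG was found in the windows of Dot1l and Setdb1, 5.13% of the 39 against 8.98% of all windows. The E2F motif was found in those of Uhrf1 and Suv39h2, and the YY1 motif AAGATGGCG in that of Suv39h1, against 0.720% of all. The RUNX motif was found in 6 windows of 5 genes, and the AP-1 and BATF motif TGANTCA in those of Kdm4a and Kdm5c, against 6.13% of all. The TATA box letters TATAAA occurred in 0 of the 39 windows and in 11.6% of all windows. The NRF1 motif TGCGCATG occurred in 0 and in 2.17%. The T-box motif AGGTGTGA also occurred in 0, and in 0.997% of all windows. Of the 39 windows, 34 overlapped a region, and among all windows with a region these shares differed. They were 5.42% for STAT, 14.6% for ETS, 3.68% for E2F, 1.19% for YY1 and 10.6% for RUNX. They were 4.09% for AP-1 and BATF (5.13% in the 39), 5.70% for the TATA box, 3.21% for NRF1 and 0.688% for T-box.

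**Figure D1:**
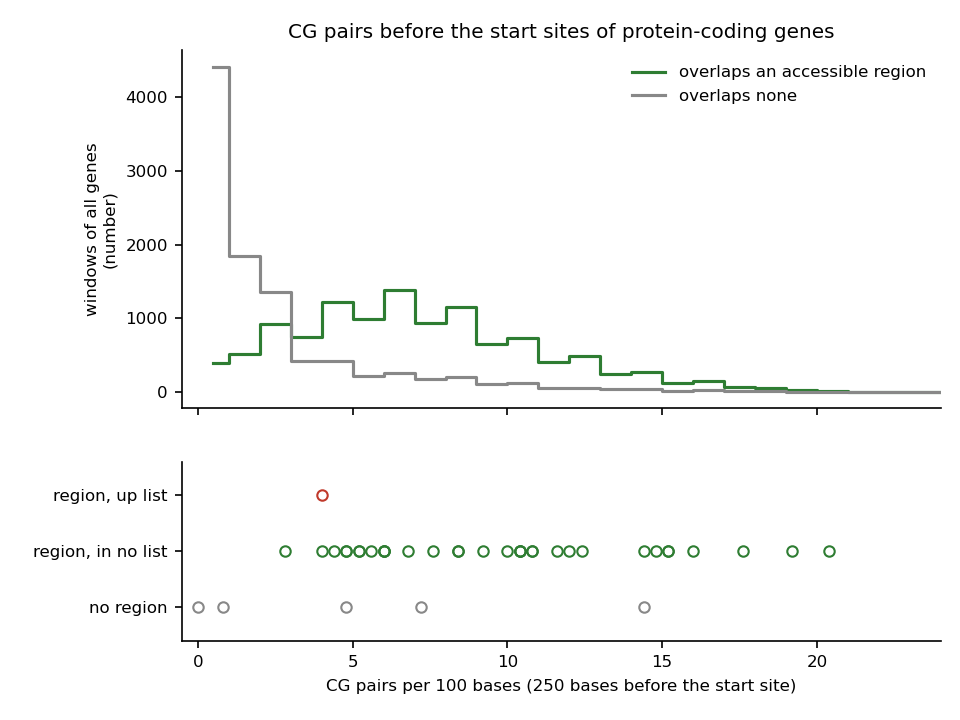
CG pairs per 100 bases in the 250 bases before start sites. The upper panel counts windows of all protein-coding genes with and without an overlapping accessible region (medians 6.8 and 1.2), and the lower panel shows the 39 windows of the methylation enzyme genes as circles. The only window under a listed region, the outer start of Uhrf1, has 4.0.

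Regions over a start-site window were wide. Their median width was 1182 bp in the methylation enzyme genes (30 regions) and 959 bp over all genes, against 345.5 and 364 bp for the remaining regions. In 25 of the 28 genes with a window, the widest region of the gene overlapped one (89.3%, against 54.4% of all genes with a window and a region). The 3 others were Ehmt2, Dot1l and Tet3. In Dot1l the widest region was a down region near the far end of the gene. The widest region of all belonged to Dnmt3a, with 2169 bp at chr12:3806217-3808385 over the outer pair of its start sites. Kmt2e followed with 2151 bp and Nsd1 with 2123 bp.

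Of the 256 regions, 12 were in the up list (4.69%, interval 2.70 to 8.01%) and 3 in the down list (1.17%, 0.399 to 3.39%). Over all regions, 4.21% were up and 1.40% were down. Taken as one, 15 regions were listed (5.86%, 3.58 to 9.44%) against 5.61% of all, so the share of listed regions was near the background. The up list gave 12 of the 15 listed regions (80%) and 75.1% of all listed regions. By the nearest gene of any biotype, noncoding genes included, 192 regions were left with these genes, 7 of them up and 2 down. The share of listed regions was then 4.69%, below the 5.61% of all regions where 5.86% lay above it.

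At least 1 listed region belonged to 12 of the 35 genes (34.3%, 20.8 to 50.8%), against 20.1% of all 16393 genes with a region. Up regions belonged to 10 genes and down regions to 3, with Tet3 in both counts, and 23 genes had neither. The methylation enzyme genes had more regions than most, with a median of 7 per gene against 3 over all genes, and longer spans, with a median of 65.0 kb against 23.1 kb. Regions inside the gene per 10 kb of span had a median of 0.923 and of 0.859 over all genes. Among all genes with exactly the same number of regions as each member, 28.1% had a listed region on average, which corresponds to 9.82 of 35 genes. The interval of the observed share includes that value.

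**Figure D2:**
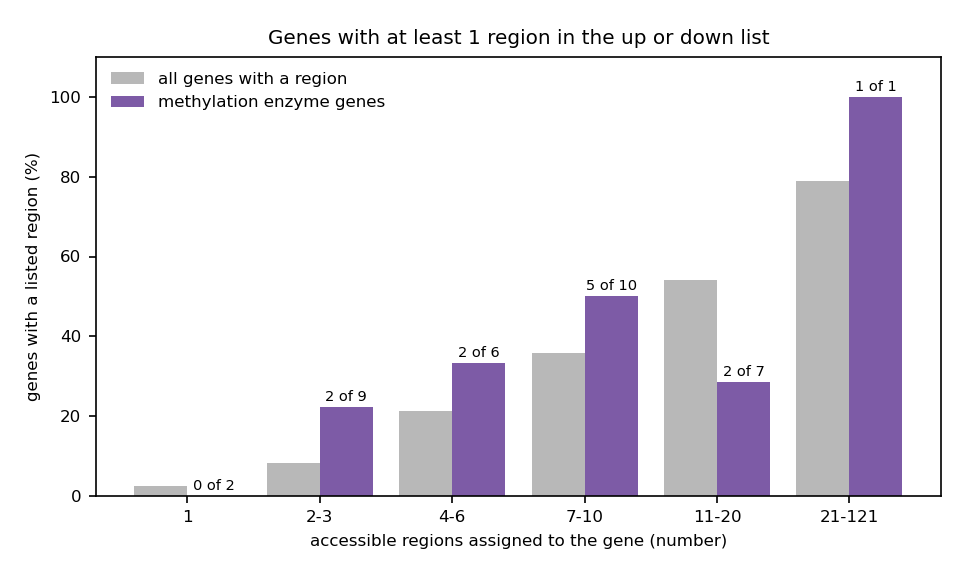
Share of genes with at least 1 listed region, by the number of accessible regions assigned to the gene. Grey bars are all genes with a region, purple bars the methylation enzyme genes with their counts above: the grey share climbs from 2.40% at 1 region to 78.9% at 21 or more, and the purple bars lie above it in 4 classes and below it in the other two.

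The number of regions differed widely within the list. Tet2 had 27 regions, more than 97.7% of all genes with a region have, followed by Dnmt3a with 20, Kdm2b with 16, and Eed and Kmt2e with 15 each. Suz12 and Kmt2b had 1 region each. Of the 10 genes with 10 or more regions, 5 had a listed one (Dnmt3a, Dnmt3b, Tet1, Tet2 and Tet3), against 59.4% of all genes with as many. Of the 17 genes with at most 4 regions, 4 had one (Ehmt1, Kdm1a, Kdm5c and Uhrf1), against 7.50% of all genes with at most 4. Of those 10319 genes, 3663 had only 1 region, as had 2 of the 17. Over all genes the share was 2.40% at 1 region, 6.54% at 2, 10.7% at 3 and 16.9% at 4. Kdm2b, Eed, Kmt2e, Kmt2a and Kmt2c, with 11 to 16 regions each, had no listed region. Among all genes, 46.6% of those with 11 regions had one, 54.9% of those with 15 and 51.2% of those with 16.

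**Figure D3:**
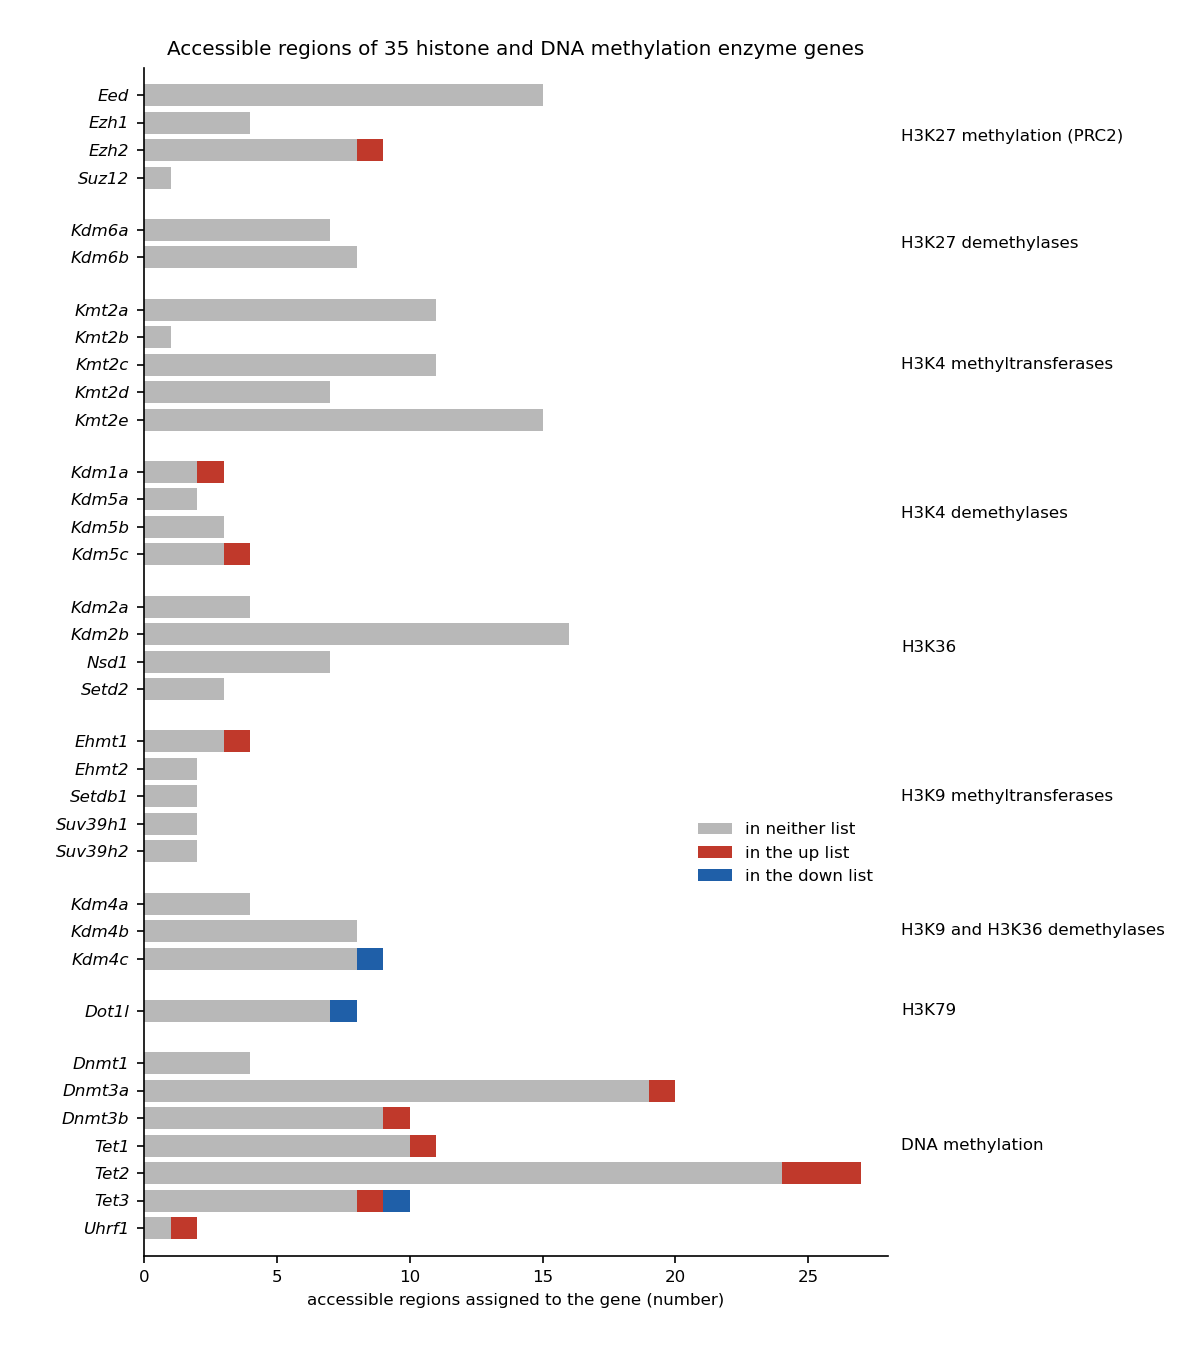
Accessible regions assigned to each of the 35 genes, ordered by what the enzymes act on. Bar length is the number of regions, red marks the up list, blue the down list and grey neither. Listed regions lie in 12 genes, and 6 of these are among the 7 DNA methylation genes at the bottom.

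The genes acting on DNA methylation held 9 of the 15 listed regions. Of their 84 regions, 8 were up and 1 was down (10.7%, 5.74 to 19.1%), against 5.61% of all regions. The 28 genes acting on histones had 172 regions, of which 4 were up and 2 were down (3.49%, 1.61 to 7.40%). These intervals overlap, and the difference was not tested. Of the DNA methylation genes, 6 of 7 had a listed region, against 20.1% of all genes and 42.5% on average of genes with the same numbers of regions, which corresponds to 2.97 of 7. Of the genes acting on histones, 6 of 28 had one, against 24.5% of genes with the same numbers of regions, or 6.85 of 28. By the nearest gene of any biotype, 5 listed regions of 57 (8.77%) in 4 of the 7 DNA methylation genes were left, and 4 of 135 (2.96%) in 4 of the 28. Only Dnmt1, the enzyme that copies methylation, had 0 of its 4 regions listed.

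The 3 Tet genes, whose enzymes oxidise methylated cytosine, together had 6 listed regions of 48 (12.5%, 5.86 to 24.7%). This family was singled out after its values were seen, and without it the share of listed regions was 4.33%, below the 5.61% of all regions. Tet2 had 3 up regions of 27, more than any other gene of the list, and 75% of all genes with 27 regions had a listed one. The up regions of Tet2 measured 568 bp at chr3:133515213-133515780, 239 bp at chr3:133542127-133542365 and 472 bp at chr3:133626441-133626912. The first 2 lay inside the gene, 28.6 and 2.03 kb downstream of the start site. The third lay outside it, 82.1 kb upstream, and nearer to the noncoding gene Gm40153. The region over the Tet2 start itself, of 1545 bp, was in neither list, nor was that of Tet1, of 1459 bp. In Tet1 the up region, of 416 bp at chr10:62808243-62808658, lay 78.7 kb downstream of the start and 3.67 kb from the far end of the gene.

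Tet3 was the only gene of the list with regions in both lists. Its up region, of 298 bp at chr6:83442600-83442897, lay 0.922 kb upstream of the start site in the table and inside the gene span, which begins farther out. Its down region, of 466 bp at chr6:83421727-83422192, lay 19.5 kb downstream of that start, 20.4 kb from the up region. The region over the start, of 743 bp, lay between them and was in neither list. When noncoding genes were allowed, the up region of Tet3 went to B230319C09Rik.

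The de novo methyltransferase genes had 1 up region each, together 2 of 30 regions (6.67% listed, 1.85 to 21.3%), near the 5.61% of all regions. Among all genes, 65.5% of those with 20 regions, as Dnmt3a had, and 43.4% of those with 10, as Dnmt3b had, had a listed one. In Dnmt3a the region was wide, 1033 bp at chr12:3861680-3862712, and lay 29.0 kb upstream of the inner start site, between the outer and inner starts. Both regions over its start sites, of 2169 and 1583 bp, were in neither list. The antisense gene Dnmt3aos is the nearest gene of any biotype to the Dnmt3a up region. In Dnmt3b the up region measured 545 bp at chr2:153699939-153700483 and lay 12.2 kb beyond the far end of the gene, nearer to Gm17897 when genes of any biotype were allowed.

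Polycomb repressive complex 2 (PRC2) writes H3K27 methylation. Its genes had 29 regions, and 1 was listed (3.45%, against 5.61% of all regions), an up region of Ezh2. Ezh2 encodes the main catalytic subunit. The region measured 329 bp at chr6:47619344-47619672, lay 24.3 kb upstream of the start, and sat between unlisted regions 550 bp and 1475 bp away. When genes of any biotype were allowed it went to F830010H11Rik, which left PRC2 with 0 listed regions. The region over the Ezh2 start, of 1591 bp, was in neither list. Ezh1, the alternative catalytic subunit, had 4 regions, all inside the gene. Eed, which binds methylated H3K27, had 14 of 15 regions outside the gene, up to 60.6 kb away. Suz12, the scaffold subunit, had a single region of 1203 bp over its start. The opposing H3K27 demethylases Kdm6a and Kdm6b had 7 and 8 regions, all inside the genes, and 0 of the 15 were listed. A count of 0 of 15 allows, by the limit of 3 counts, a share of up to 20%, which includes the 5.61% of all regions.

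The H3K4 methyltransferase genes Kmt2a, Kmt2b, Kmt2c and Kmt2d, with the related Kmt2e, had 45 regions and none in either list. By the limit of 3 counts this allows a share of up to 6.67%, which includes the 5.61% of all regions. Kmt2b had only the region at its end, of 1744 bp. Of the H3K4 demethylase genes, Kdm1a (also called LSD1) and Kdm5c each had 1 up region, together 2 of the 12 regions of the group (16.7% listed, against 5.61% of all regions). That of Kdm1a, of 508 bp at chr4:136569943-136570450, lay 32.3 kb downstream of the start. That of Kdm5c, of 299 bp at chrX:152234175-152234473, lay 948 bp downstream of its start, and 637 bp from the unlisted region of 940 bp over the start. Of the 15 listed regions, only that of Uhrf1 and the up region of Tet3 lay nearer to a start site. Kdm5b had 3 regions and Kdm5a 2, none listed. Both regions of Kdm5a lay outside the gene, because the region of 1456 bp over its end also covered an end of Ccdc77 and was counted there.

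The H3K36 genes had 30 regions, none listed, which allows a share of up to 10% by the limit of 3 counts, and 5.61% of all regions were listed. They were Setd2 and Nsd1, which write the mark, and Kdm2a and Kdm2b, which remove it. Kdm2b, which also brings Polycomb proteins to CG-rich DNA, had 16 of the 30. Setd2 had a region of 1402 bp over its start and 2 others.

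Among the H3K9 methyltransferase genes, Ehmt1 had an up region, 1 of the 12 of the group (8.33% listed, against 5.61% of all regions). It measured 343 bp at chr2:24783133-24783475 and lay 7.29 kb beyond the far end of the gene. Setdb1, Suv39h1, Suv39h2 and Ehmt2 had 2 regions each, none listed. The demethylase genes Kdm4a, Kdm4b and Kdm4c, whose enzymes act on H3K9 and H3K36, had 21 regions and 1 down region (4.76% listed, against the same 5.61%). That region, of 477 bp at chr4:74796538-74797014, was nearest to Kdm4c by the rule but lay 390.7 kb from it, and the next nearest gene, Dmac1, lay 480.3 kb away. With genes of any biotype it went to Gm18744, which left the group with 0. The adjoining region, 276 bp away, was in neither list. Kdm4b is the next gene after Uhrf1 on chromosome 17, 2483 bp away, and had 0 of 8 regions listed, where 34.4% of all genes with 8 regions had a listed one.

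Dot1l, the H3K79 methyltransferase, had 1 down region of 8, and 34.4% of all genes with 8 regions had a listed one. It was the widest listed region of all 35 genes, 1121 bp at chr10:80791803-80792923, and lay 36.6 kb downstream of the start and 2.54 kb from the far end of the gene. The region over the Dot1l start, of 533 bp, was in neither list.

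**Figure D4:**
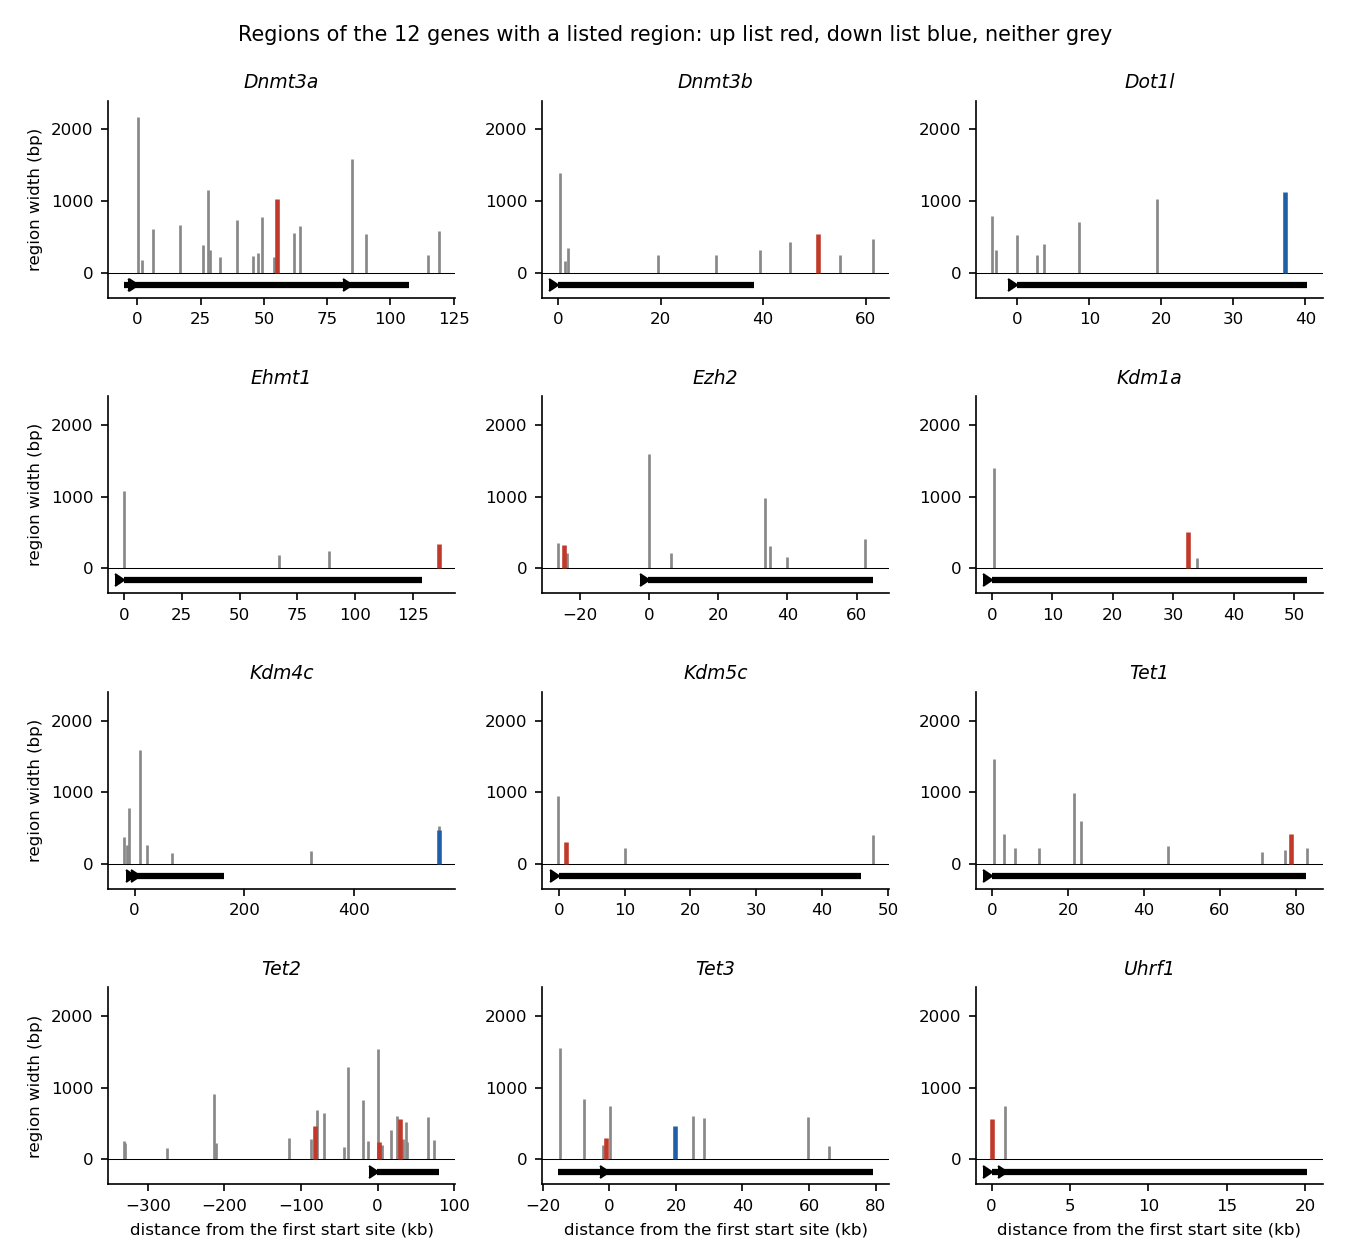
In the 12 genes with a listed region, each vertical line is a region at its distance from the outermost start site in kb (positive is downstream), its height is the width in bp, the black bar is the gene and arrowheads are start sites. A red line stands on a start site only in Uhrf1, and the red lines of Tet3, Kdm5c and 1 of Tet2 adjoin the grey line at a start site, at gaps of 586, 637 and 1254 bp, while the blue line of Kdm4c hides most of the unlisted region beside it.

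Of the 15 listed regions, 1 overlapped a start-site window (6.67%), as did 89 of the 5120 listed regions of all genes (1.74%). Of regions listed or not, 11.7% of the 256 and 10.4% of all overlapped one, so most regions of any kind lay away from start sites. Of the 15, 4 lay within 5 kb of a start site (Kdm5c, Tet2, Tet3 and Uhrf1), 10 lay downstream and 4 upstream. Inside the genes lay 10 of the 15 (8 up and 2 down). The share of listed regions was 5.41% among the 185 regions inside the genes and 7.04% among the 71 outside, against 4.78 and 6.91% over all regions. Within 1000 bp of a gene end lay 36 of the 256 regions (14.1%, 10.3 to 18.9%), against 17.1% of all regions. Counting start sites only, the order turned, to 14.5% against 13.1%. Of the 36 regions, 2 were listed (Kdm5c and Uhrf1), against 1.94% of all such regions. Listed regions of these genes had median widths of 444 bp (up) and 477 bp (down), against 453 and 537 bp over the whole lists. Another listed region lay within 50 kb of 5 of the 15: the pairs within Tet2 and within Tet3, and, for Kdm5c, an up region of Iqsec2 43.8 kb away. For the other 10, the nearest was between 65.3 kb (Dot1l) and 603.6 kb (Kdm4c) away. No share over all regions is given for the counts within 5 kb, downstream, upstream or within 50 kb.

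A further 80 genes of histone and DNA methylation and Polycomb biology, outside the 35, were set beside them. With 516 regions, they had 16 up and 4 down regions (3.88% listed, against 5.61% of all regions). The listed regions lay in 15 of the 77 genes that had a region, where 20.1% of all genes with a region had one. The PRC2 partners had 4 up regions of 96, with 2 each at Aebp2 and Jarid2, the Jarid2 pair more than 337 kb from the gene. The H3K4 methyltransferase complex (COMPASS) genes had 1 of 42, an up region 68.0 kb from Wdr5. Other lysine methyltransferase genes had 4 up regions of 108, at Smyd2, Smyd3, Kmt5a and Kmt5b. Other lysine demethylase genes had 2 up regions of 68, at Kdm3a and Phf2, and 2 down regions, both at Kdm4d. Genes of DNA methylation readers and partners had 3 up regions of 87, at Dnmt3l, Gadd45a and Mbd2. Polycomb repressive complex 1 genes had 2 up regions, both at Phc2, and 2 down regions, both inside Cbx7, of 93. The arginine methyltransferase genes had 0 of 22.

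By position, the regions covered the markers of the labelled cell type. All 11 NK cell markers searched had a region at a gene end, against 4 of 7 T cell, 2 of 5 myeloid and 2 of 3 erythroid markers and 1 of 5 genes not of blood. Cd4, Cd8a, Ms4a1, Cd79a, Pax5, Csf1r and Gata1 had none there. Of the 133 regions of the NK cell markers, 1 was up (0.752%, against 4.21% of all regions) and 8 were down (6.02%, against 1.40%). The B cell factor gene Ebf1 had 3 up and 0 down of 18, and Pax5 had 0 listed of 6. The part of these cell types in the lists near the methylation enzyme genes was not tested.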

How the data were processed

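ATAC-seq libraries came from 2 high-dose and 2 low-dose cultures, grouped by their titles. The files hold positions only: a table of 91266 regions with widths in bp, and the authors' deposited up and down lists. Per the submitters' processing notes, mm10, BWA, ArchR, MACS2 and HOMER 4.11.1 were used, with no role given. The peak calling, differential test, threshold and reference dose are not given in the sources used here. A planned test of the doses could not be made without values per sample.

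Starts in the full list, 0-based, were raised by 1, after which every listed position was found in it. Regions were assigned to the nearest of 21900 protein-coding genes (RefSeq, GRCm38.p6) by distance to the span, ties going to the nearer end and then to the gene first along the chromosome. Exons and introns were not annotated. Start-site windows and sequences came from RefSeq promoters on the same build. Of these windows, 54.0% overlapped a region, against 4.90 and 5.00% when moved by 100 kb in either direction. The assignment was tested on simulated data. Python 3.11.15, pandas 2.3.3 and scipy 1.17.1 were used. No test was made of the 35 genes as a list, and all their listed regions are named. A marker gene, and the counts over its list, are not reported here. The members and gene lists were chosen with earlier results of these data known.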

Additional observations from a re-analysis of the deposited data

How the results depend on the processing

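No paired analysis was possible because the result comes from no test: the tables list positions, without any column for a single library. Leaving out a replicate was not run for that reason. Of the 17 alternatives run on 5 results, 3 moved by more than 1.5 times (a count) or beyond the reported interval (a share), and 14 did not. With the nearest gene of any biotype, the 12 up regions became 7: those of Dnmt3b, Ezh2 and 1 of Tet2 lay nearer to another gene, and those of Dnmt3a and Tet3, inside both genes, went to the nearer end. With regions that overlap the gene, they became 8 and the down regions 2, in 8 of the 35 genes. The share of regions at a gene end, 14.1%, became 10.2% within 100 bp and 23.8% within 3000 bp, and over all regions it became 11.5 and 26.0%. The share of listed regions lay between 4.0% (regions under the median width) and 7.63% (wider ones), against 3.83 and 7.39% over all regions of those widths.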

Other observations

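Some genes used to check the cell type had listed regions of their own, where 4.21% of all regions were up and 1.40% down. Of the 11 NK cell markers, 4 had a listed region, against 20.1% of all genes, and 7 had none, among them the transcription factor genes Eomes with 31 regions and Tbx21 with 11. These markers had 2 to 31 regions each. Among all genes, 35.9% of those with 7 to 10 regions and 54.1% of those with 11 to 20 had a listed one. Ncr1, an activating receptor gene of NK cells, had 4 of 11 regions in the down list. Klrb1c, another NK cell receptor gene, had 2 of 17 in the down list, and the cytokine receptor gene Il2rb had 1 of 12. The integrin gene Itga2 had 1 up and 1 down of 19. Ebf1, a transcription factor of B cell development, had 3 of 18 regions in the up list. They lay at chr11:44606925-44607226, chr11:44616909-44617564 and chr11:44618210-44618576, which is 10.9 kb outside the gene, 536 bp outside it and inside it, in that order. Cd28, a costimulatory receptor gene best known from T cells, had 3 down regions and 1 up region of 20. Of the down regions, 1 lay inside the gene, 1 lay 5.35 kb from it and 1 lay 49.5 kb from it, and the up region lay 68.6 kb from it. The other T cell markers with a region, Cd5 with 7, Cd3e with 4 and Cd3d and Cd3g with 1 each, had 0 listed. The B cell marker Pax5, with 6 regions, had 0 listed too.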
